A study of Mus musculus with 27 samples.

Results

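The 9 genes described here, Atf4, Atf3, Ddit3, Trib3, Asns, Chac1, Psat1, Phgdh and Ppp1r15a, belong to the integrated stress response, and they were chosen by gene symbol from the 55414 genes of the count table. All 9 were among the 14114 genes that passed the filter on low counts. RNA was sequenced from total liver homogenate of 27 female Balb/c mice, 8 weeks old, in 8 groups. The 4 groups without fibrosis received olive oil intraperitoneally. They were control (4 mice, also given PBS through the tail vein), 4MU (3 mice, daily gavage of 4-methylumbelliferone, an inhibitor of hyaluronan synthesis), siLuc-LNP (3 mice, lipid nanoparticles with an siRNA against luciferase, which has no target in the mouse) and siHAS2-LNP (3 mice, the same particles with an siRNA against hyaluronan synthase 2). The 4 fibrotic groups received carbon tetrachloride (CCl4), a hepatotoxin activated by hepatocytes, for 2 weeks. They were CCl4 alone (2 mice), CCl4+4MU (4 mice), CCl4+siLuc-LNP (4 mice) and CCl4+siHAS2-LNP (4 mice), with 4MU and the nanoparticles started before the first CCl4 dose.

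In the integrated stress response, kinases that sense unfolded protein, amino acid shortage, viral RNA or haem shortage phosphorylate the translation factor eIF2. General translation then slows while the mRNA of the transcription factor ATF4 is translated more, so that ATF4 is largely set at the level of translation and its mRNA is an incomplete readout of its activity. ATF4, often paired with C/EBP proteins, activates genes of amino acid synthesis and uptake, further transcription factors, and a feedback phosphatase subunit that restores translation. In the liver the response is known from fasting, amino acid restriction, toxins and endoplasmic reticulum stress.

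The members fall into 4 roles. Atf4 (ENSMUSG00000042406, chr15:80139372-80141745, plus strand of GRCm39) encodes the central transcription factor, and Atf3 (ENSMUSG00000026628, chr1:190902493-190950241, minus) and Ddit3 (ENSMUSG00000025408, chr10:127124268-127132163, plus), which encodes CHOP, are transcription factors that act after it. Psat1 (ENSMUSG00000024640, chr19:15882039-15924701, minus), Phgdh (ENSMUSG00000053398, chr3:98220484-98255047, minus) and Asns (ENSMUSG00000029752, chr6:7671667-7728461, minus) encode enzymes of amino acid synthesis. Trib3 (ENSMUSG00000032715, chr2:152179337-152191958, minus), a pseudokinase, and Chac1 (ENSMUSG00000027313, chr2:119180757-119184866, plus), an enzyme that degrades glutathione, are targets of ATF4 and CHOP. Ppp1r15a (ENSMUSG00000040435, chr7:45172340-45175692, minus) encodes GADD34, the feedback subunit that directs a phosphatase to eIF2. The values are counts over the exons of each gene. All 979 bases of the canonical Ddit3 transcript are covered by exons of genes on the opposite strand, Mars1 among them, and the strand setting of the counting was not stated, so Ddit3 counts are uncertain. The same overlap covered 5.26% of the canonical transcript of Asns and 0.471% of that of Ppp1r15a, and none of the other 6. A further gene entry also carries the symbol Ddit3 and overlaps 10.7% of the canonical Ddit3 transcript on the same strand. The Ddit3 values given here are those of the entry named above alone. Counts in the part shared by the entries are uncertain whatever the strand setting.

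ATF4 binds with C/EBP proteins to the C/EBP-ATF response element. The promoters, taken as 250 bases before to 50 bases after the start of the canonical transcript in GRCm39, were searched on both strands for TGATGNAA, and 3 of the 9 members held a match, beside 832 of 21627 promoters (3.85%). Other transcript starts and the rest of each gene were not searched, so a member without a match may hold the element elsewhere. The 3 matches are shown because they locate the element in relation to the start of each gene, with the match in capitals and 8 bases on either side, 5′ to 3′ on the strand of the match.
Atf3, chr1:190915625-190915648, plus strand, bases -103 to -96 from the start: ggacttggTGATGCAAgtgcgaga
Ddit3, chr10:127126353-127126376, minus strand, bases -199 to -192 from the start: ggcggggaTGATGCAAtgtttggc
Chac1, chr2:119181522-119181545, minus strand, bases -159 to -152 from the start: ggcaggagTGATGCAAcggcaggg
All 3 matches lay in the orientation opposite to their gene. Among these 3 genes Atf3 was higher in CCl4 than in control mice, Chac1 was called in CCl4+4MU against CCl4 mice, and Ddit3 was called in no comparison.

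Total counts ranged from 7044386 to 29425937 per mouse (median 22109517), and the lowest was CCl4+siHAS2-LNP mouse 4. Values are counts per 1000000 of the TMM-scaled total (CPM), and 3 counts correspond to 0.104 to 0.401 CPM. Mitochondrial genes took 1.42% to 8.10% of counts in the CCl4-treated mice and 2.94% to 6.62% in the others. Has2, the gene targeted by siHAS2, had 0 counts in 25 of the 27 mice and at most 2 in any, so its knockdown could not be checked from these counts. The summed level of 5 hepatocyte markers (Alb, Apoa1, Ttr, Cyp2e1 and Cps1) was at least 72300 CPM in every mouse, which matches the labelled tissue. Comparisons used edgeR's quasi-likelihood test over 14114 genes, with Benjamini-Hochberg adjustment, and a gene is called where its adjusted p is under 0.05. The labels name no batch, and the p-values measure the spread between these mice. The comparisons with CCl4 share its 2 mice, and those with control share its 4 mice. CCl4 mouse 2 stood apart, with the lowest hepatocyte marker sum of all mice and a TMM factor of 1.323, and without it the genes called fell from 4805 to 2145 in CCl4 against control, from 2580 to 184 in CCl4+4MU against CCl4 and from 2038 to 108 in CCl4+siHAS2-LNP against CCl4 mice. The single CCl4 mouse left was then assumed to vary like the other groups.

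In the 13 mice without CCl4 the transcription factor itself was by far the most abundant member, and the serine and asparagine enzymes were the least. On the scale of CPM per kb of transcript, which allows levels of different genes to be compared, Atf4 averaged 63.8 ± 11.95 (SD, n = 13). Ddit3 (5.95 ± 1.25), Trib3 (5.06 ± 2.43) and Ppp1r15a (3.84 ± 0.80) followed, and these neighbours differed by less than the SD of Trib3. Chac1 (1.61 ± 0.72) and Atf3 (1.29 ± 0.40) came next and likewise overlapped. Asns (0.25 ± 0.23), Psat1 (0.24 ± 0.08) and Phgdh (0.18 ± 0.06) were lowest and not separated beyond their spread. In the 14 CCl4-treated mice Atf4 still led, with 50.5 ± 7.24 CPM per kb (n = 14), while Psat1 (6.67 ± 3.80) and Phgdh (4.87 ± 2.75) stood within the range of Trib3 (6.99 ± 4.84) and Ddit3 (6.26 ± 2.76).

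**Figure D1:**
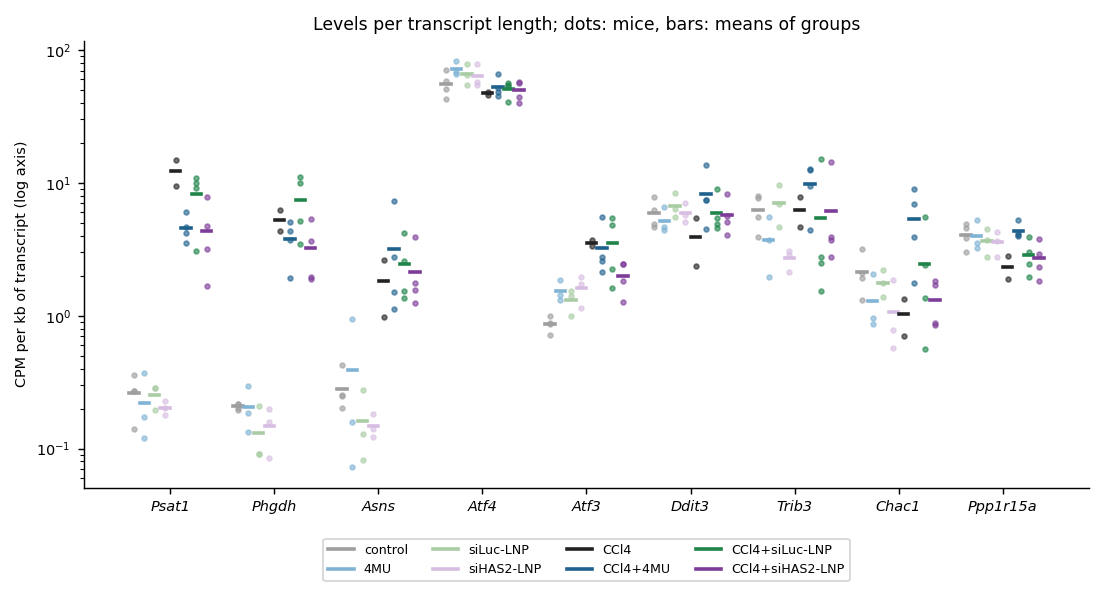
Level of each of the 9 genes in CPM per kb of canonical transcript (log axis) in the 8 groups, with a dot for each mouse and a bar for the mean of each group. Atf4 lies far above the other genes in every group, and Psat1, Phgdh and Asns move from the lowest levels in the mice without CCl4 into the range of the other members in the CCl4-treated mice.

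CCl4 against control mice asks how the toxin alone changed the response. The enzymes of amino acid synthesis rose strongly and Atf3 rose about 4.07-fold, while Atf4, Ddit3, Trib3 and Chac1 were not called and Ppp1r15a was lower. Of the 9 members, 5 were called, 4 higher and 1 lower, where 34.0% of all tested genes were called (18.0% higher and 16.1% lower). The median log2 fold change of the members was -0.01, beside -0.02 over all tested genes.

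Psat1 encodes phosphoserine aminotransferase, the middle enzyme of serine synthesis from glucose. It had 0.71, 0.71, 0.94 and 0.37 CPM in the control mice and 24.9 and 39.2 CPM in the CCl4 mice. Both CCl4 mice lay far above every control mouse, with a log2 fold change of 5.55 (SE 0.48, adjusted p = 6.53e-09), or 46.9-fold. Phgdh, the first enzyme of the same path, had 0.41, 0.41, 0.38 and 0.37 CPM in control and 11.8 and 8.18 CPM in CCl4 mice. The groups did not overlap and the log2 fold change was 4.65 (SE 0.48, adjusted p = 7.06e-08). The control values rest on 9 to 22 counts for Psat1 and 7 to 9 counts for Phgdh, so the size of these fold changes is less certain than their direction.

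Asns encodes asparagine synthetase, a classic target of amino acid shortage. It had 1.22, 1.24, 0.98 and 2.08 CPM in control mice and 12.9 and 4.82 CPM in CCl4 mice. The groups did not overlap, but the 2 CCl4 mice lay far apart. The log2 fold change was 2.66 (SE 0.72, adjusted p = 0.00589), and without CCl4 mouse 1 it was 1.81 and no longer called (adjusted p = 0.123).

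Among the transcription factors, Atf3, an early repressor and activator in many stresses, had 1.99, 1.71, 1.75 and 1.43 CPM in control mice. In the CCl4 mice it had 6.67 and 7.31 CPM, above every control mouse (log2 fold change 2.02, SE 0.39, adjusted p = 3.13e-04). Atf4 had 74.7, 101.5, 123.0 and 88.2 CPM in control and 83.8 and 80.4 CPM in CCl4 mice, which lay within the range of the controls. Its log2 difference was -0.24, with a 95% interval of -0.65 to 0.18 (adjusted p = 0.407). Ddit3 had 4.78, 7.67, 6.11 and 4.58 CPM in control and 2.34 and 5.31 CPM in CCl4 mice (log2 difference -0.58, interval -1.33 to 0.17, adjusted p = 0.25). CCl4 mouse 1 lay below every control mouse and mouse 2 within their range.

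Trib3 and Chac1 were not called. Trib3 had 16.0, 16.7, 8.24 and 11.7 CPM in control and 16.4 and 9.72 CPM in CCl4 mice, with fully overlapping groups. Its log2 difference of -0.01 (interval -1.33 to 1.31, adjusted p = 0.991) had no stable sign, and was 0.0064 with DESeq2 size factors. Chac1 had 3.21, 5.25, 2.18 and 3.48 CPM in control and 2.24 and 1.17 CPM in CCl4 mice (log2 difference -1.05, interval -2.41 to 0.30, adjusted p = 0.248). Ppp1r15a had 10.7, 11.4, 8.97 and 7.07 CPM in control and 4.43 and 6.52 CPM in CCl4 mice, both below every control mouse. It fell by 0.79 on the log2 scale (SE 0.30, adjusted p = 0.0435), a call that was lost with limma-voom (adjusted p = 0.0923) and without any of these mice other than control mouse 4. The difference was -0.53 without CCl4 mouse 1 (adjusted p = 0.31) and -1.08 without CCl4 mouse 2 (adjusted p = 0.0736), and the adjusted p was 0.0803, 0.1001 and 0.0564 without control mouse 1, 2 and 3.

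**Figure D2:**
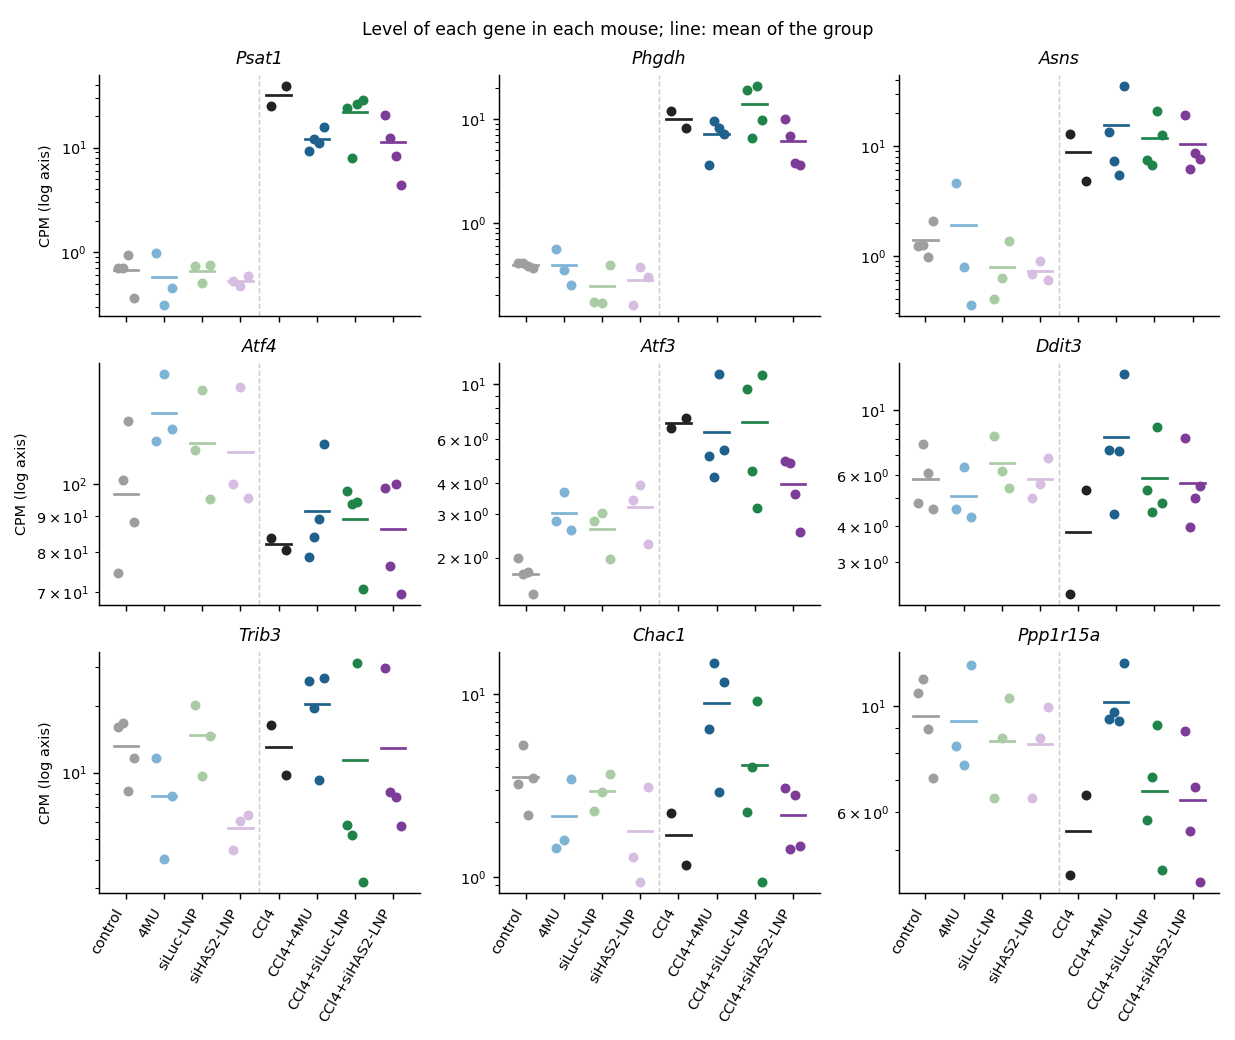
CPM of each gene (log axis, its own scale in each panel) in each of the 27 mice by group, with a line at the mean of the group and a dashed line between the groups without and with CCl4. For Psat1 and Phgdh every CCl4-treated mouse lies above every other mouse, whereas for Atf4, Ddit3, Trib3 and Chac1 the mice with and without CCl4 overlap.

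The same question can be asked within each treatment, where CCl4+4MU was set against 4MU, CCl4+siLuc-LNP against siLuc-LNP and CCl4+siHAS2-LNP against siHAS2-LNP. Psat1, Phgdh and Asns rose in all 3. Of the 9 members, 5 were called in the 4MU arm (all higher, where 13.2% of tested genes were called higher and 23.7% in either direction), 4 in the siLuc-LNP arm (all higher, 13% and 24.2%) and 3 in the siHAS2-LNP arm (all higher, 7.74% and 12.8%).

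Psat1 had 0.31 to 0.97 CPM in all 13 mice without CCl4 and 4.41 to 39.2 CPM in the 14 with it. Its log2 fold change was 4.4 (SE 0.51, adjusted p = 1.01e-06) in the 4MU arm, 5.001 (SE 0.51, adjusted p = 1.35e-07) in the siLuc-LNP arm and 4.45 (SE 0.52, adjusted p = 2.10e-06) in the siHAS2-LNP arm. Phgdh had 0.16 to 0.56 CPM without and 3.61 to 20.95 CPM with CCl4. Its log2 fold change was 4.18 (SE 0.50), 5.74 (SE 0.54) and 4.47 (SE 0.53) in the same order of arms. Asns had 0.35 to 4.61 CPM without and 4.82 to 35.7 CPM with CCl4, so that 4MU mouse 1, at 4.61 CPM, came close to the lowest CCl4-treated mouse. The log2 fold change of Asns was 3.05 (SE 0.70, adjusted p = 0.00271), 3.84 (SE 0.77, adjusted p = 7.51e-04) and 3.84 (SE 0.78, adjusted p = 0.00161). For these 3 enzymes no mouse with CCl4 overlapped any mouse without it, in any arm, though for Asns only narrowly. How many of all tested genes separate in the same way was not counted.

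Atf3 was higher in the 4MU arm (log2 fold change 1.09, SE 0.36, adjusted p = 0.0282) and in the siLuc-LNP arm (1.45, SE 0.37, adjusted p = 0.00527). In the siHAS2-LNP arm its levels overlapped, with 3.43, 3.91 and 2.27 CPM without and 4.89, 4.83, 3.61 and 2.54 CPM with CCl4 (log2 difference 0.33, SE 0.36). The difference between the siHAS2-LNP and siLuc-LNP arms was -1.12 on the log2 scale and did not pass the test (interaction, adjusted p = 0.402), so the arms are not shown to differ. The call in the 4MU arm was lost without 4MU mouse 1 (1.05, adjusted p = 0.0788), without 4MU mouse 3 (0.99, adjusted p = 0.112) and without CCl4+4MU mouse 3 (0.70, adjusted p = 0.15), and the call in the siLuc-LNP arm was lost when only its 2 groups were fitted (adjusted p = 0.0574).

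Chac1 was also called in the 4MU arm, with 1.44, 1.60 and 3.44 CPM without and 6.45, 14.8, 2.92 and 11.6 CPM with CCl4. The groups overlapped by CCl4+4MU mouse 3, and the log2 fold change was 2.05 (SE 0.60, adjusted p = 0.0144). It was not called without 4MU mouse 1 (1.84, adjusted p = 0.0595) or 4MU mouse 2 (1.87, adjusted p = 0.0665).

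Averaged over the 4 arms, which weighs each arm equally, 6 of the 9 members were called, 4 higher and 2 lower, where 51.9% of tested genes were called (26.3% higher, 25.6% lower). The log2 fold changes were 4.85 (SE 0.25) for Psat1, 4.76 (SE 0.26) for Phgdh, 3.35 (SE 0.37) for Asns and 1.22 (SE 0.19) for Atf3. The mRNA of Atf4 moved the other way and fell by 0.36 (SE 0.10, adjusted p = 0.00329). It ranged from 74.7 to 143.7 CPM (median 112.0) without and from 69.7 to 114.2 CPM (median 86.6) with CCl4, so the 2 sets of mice overlapped widely. Ppp1r15a fell by 0.35 (SE 0.13, adjusted p = 0.0321), a call lost without 8 single mice, at adjusted p from 0.0516 to 0.119. These were 4MU mouse 3, siLuc-LNP mouse 3, siHAS2-LNP mouse 3, CCl4 mouse 1, CCl4+siLuc-LNP mice 1 and 4, and CCl4+siHAS2-LNP mice 2 and 4. Trib3 (0.55, SE 0.31, adjusted p = 0.145), Chac1 (0.45, SE 0.31, adjusted p = 0.221) and Ddit3 (-0.03, SE 0.17, adjusted p = 0.88) were not called, and the Ddit3 difference changed sign when 1 of 7 single mice was left out.

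Markers of other cells moved with CCl4 as well. In bulk liver, fewer or more cells of a type and less or more RNA per cell cannot be told apart. The summed level of 3 genes of dividing cells (Mki67, Top2a and Ccnb1) was 1.13 to 20.9 CPM in the mice without CCl4 and 29.5 to 434.5 CPM in those with it. That of 6 genes of stellate cells and fibroblasts was 36.0 to 114.0 against 141.5 to 756.4 CPM, that of 6 monocyte and macrophage genes 66.5 to 240.7 against 244.8 to 1046 CPM, and that of the 5 hepatocyte genes 129100 to 200300 against 72300 to 175600 CPM. The 4 Kupffer cell genes summed to 148.8 to 450.3 against 89.2 to 347.5 CPM. The 4 bile duct genes summed to 3.25 to 11.6 against 5.81 to 121.6 CPM. Averaged over the arms all 4 Kupffer cell genes fell and all 4 bile duct genes rose. There 51.9% of all tested genes were called (26.3% higher and 25.6% lower). No marker of these lists was at 0 throughout a group. In CCl4 against control mice, 5 of the 6 stellate and fibroblast genes and 5 of the 6 monocyte and macrophage genes rose. Of the 5 hepatocyte genes 3 fell. There 34.0% of all tested genes were called (18.0% higher and 16.1% lower). The part of these markers in the rise of Psat1, Phgdh, Asns and Atf3 was not tested.

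**Figure D3:**
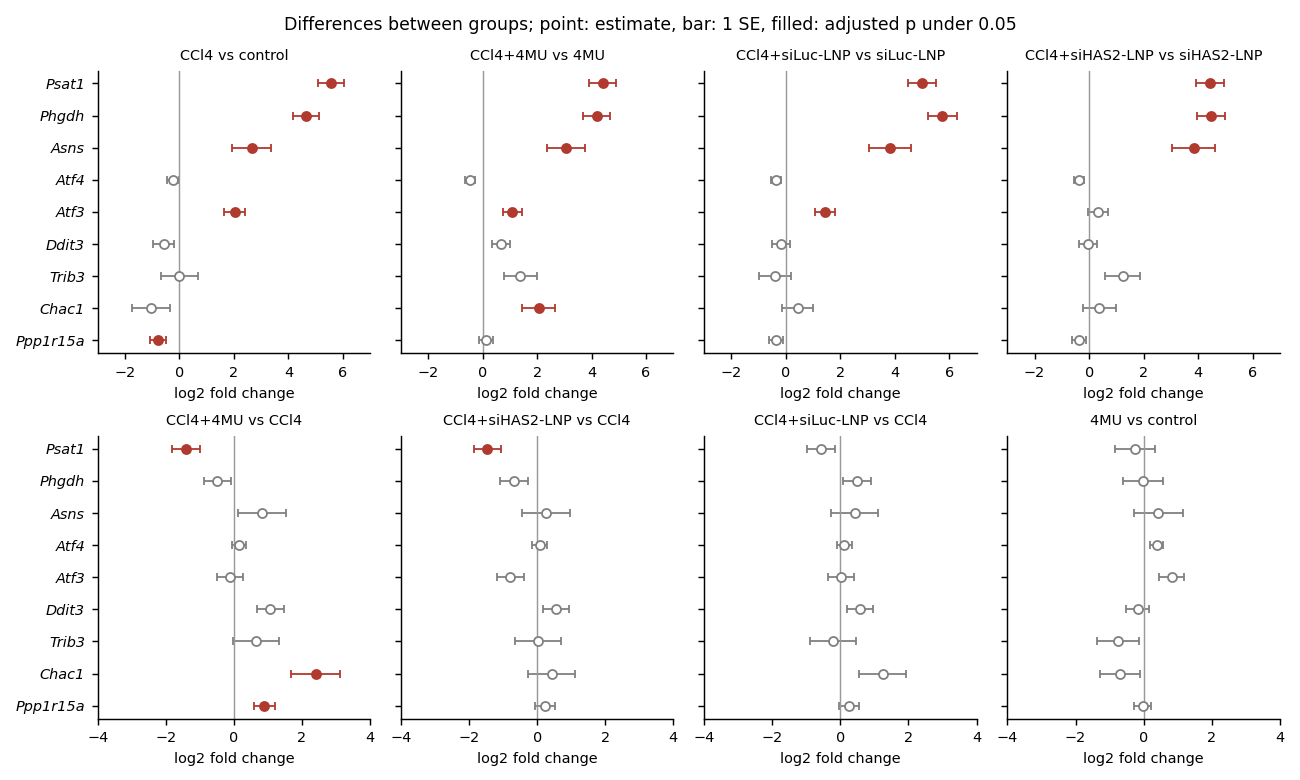
Log2 fold change of each of the 9 genes (points, with bars of 1 SE) in 8 comparisons. Filled red points have an adjusted p under 0.05 in edgeR's quasi-likelihood test, open grey points do not. The upper row, for the effect of CCl4 within each arm, shows Psat1, Phgdh and Asns to the right of 0 in all 4 arms, and the lower row, for the treatments, shows Psat1 below 0 in both CCl4+4MU and CCl4+siHAS2-LNP against CCl4.

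CCl4+4MU against CCl4 mice asks what treatment with 4MU changed in the fibrotic liver. It cannot tell inhibited hyaluronan synthesis from other actions of 4MU. Psat1 was lower, while Chac1 and Ppp1r15a were higher. These 3 of the 9 members were called (2 higher and 1 lower), where 18.3% of tested genes were called (8.28% higher and 10% lower). The median log2 fold change of the members was 0.65, beside 0.04 over all tested genes.

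Psat1 had 9.21, 12.1, 11.05 and 15.7 CPM in the CCl4+4MU mice, all below the CCl4 mice at 24.9 and 39.2 CPM and all above the mice without CCl4. It fell by 1.41 on the log2 scale (SE 0.40, adjusted p = 0.0178), to 0.375 of its level. Without CCl4 mouse 2 the difference was -1.08 and not called (adjusted p = 0.255). Phgdh had 3.61, 9.62, 8.204 and 7.08 CPM, overlapping the CCl4 mice (log2 difference -0.49, interval -1.28 to 0.31, adjusted p = 0.417). Asns had 13.6, 7.33, 5.51 and 35.7 CPM (log2 difference 0.82, interval -0.56 to 2.198, adjusted p = 0.434). CCl4+4MU mouse 4 held the highest Asns level of all 27 mice, and without it the difference was -0.0082.

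Chac1 had 6.45, 14.8, 2.92 and 11.6 CPM in the CCl4+4MU mice against 2.24 and 1.17 CPM in the CCl4 mice. Every CCl4+4MU mouse lay above both, and 3 of the 4 lay above every mouse without CCl4. The log2 fold change was 2.401 (SE 0.72, adjusted p = 0.0227), or 5.28-fold, and it was not called without CCl4 mouse 1 (2.91, adjusted p = 0.0507), CCl4 mouse 2 (1.963, adjusted p = 0.258) or CCl4+4MU mouse 2 (2.015, adjusted p = 0.0556), nor by limma-voom (adjusted p = 0.114).

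Ppp1r15a had 9.42, 9.72, 9.31 and 12.35 CPM in the CCl4+4MU mice, above the 4.43 and 6.52 CPM of the CCl4 mice, and 3 of the 4 lay within the range of the control mice. The log2 fold change was 0.89 (SE 0.30, adjusted p = 0.0399). This call was lost without either CCl4 mouse (0.63, adjusted p = 0.261, and 1.18, adjusted p = 0.123), without CCl4+4MU mouse 1, 2 or 4 (adjusted p of 0.0526, 0.059 and 0.0971) and with limma-voom (adjusted p = 0.0854).

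Ddit3 had 7.31, 4.39, 7.24 and 13.3 CPM in the CCl4+4MU mice and 2.34 and 5.31 CPM in the CCl4 mice, which overlapped. Its log2 difference of 1.07 (SE 0.39, adjusted p = 0.0545) stayed just short of the threshold, and it passed with DESeq2 (adjusted p = 0.0335) and without CCl4+4MU mouse 2 (1.24, adjusted p = 0.0286). Trib3 had 25.9, 19.65, 9.28 and 26.7 CPM in the CCl4+4MU mice, so that 3 of the 4 lay above both CCl4 mice and 1 below them (log2 difference 0.65, interval -0.70 to 1.99, adjusted p = 0.533). Atf3 (5.12, 4.24, 11.01 and 5.45 CPM) and Atf4 (78.6, 83.9, 89.3 and 114.2 CPM) overlapped the CCl4 mice, with log2 differences of -0.11 (adjusted p = 0.865, and 0.015 without CCl4+4MU mouse 2) and 0.16 (adjusted p = 0.634).

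In the liver without fibrosis Chac1 had 1.44, 1.60 and 3.44 CPM in the 4MU mice against 2.18 to 5.25 CPM in the control mice, a log2 difference of -0.70 (SE 0.59). The effect of 4MU with CCl4 minus that without it was 3.11 for Chac1 (interaction, SE 0.92, adjusted p = 0.0471), where 5.67% of tested genes were called (2.72% positive). Chac1 was the only member called. Its interaction lost the call without each of the 13 mice involved other than control mouse 3 and CCl4+4MU mouse 3, with adjusted p from 0.0533 to 0.251, and with limma-voom (adjusted p = 0.092). For Ddit3 (1.25, SE 0.51, adjusted p = 0.124) and Ppp1r15a (0.92, SE 0.39, adjusted p = 0.14) the interaction did not pass.

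In 4MU against control mice edgeR called 0 of the 9 members, with 2 at an unadjusted p under 0.05, and DESeq2 called 0 as well. Only 0.00709% of tested genes were called. The log2 differences were 0.82 for Atf3 (SE 0.37, adjusted p = 0.685), 0.38 for Atf4 (SE 0.18, adjusted p = 0.727) and 0.43 for Asns (SE 0.72). They were -0.75 for Trib3, -0.70 for Chac1, -0.26 for Psat1, -0.18 for Ddit3, -0.03 for Ppp1r15a and -0.02 for Phgdh. The 3 4MU mice had 2.82, 3.67 and 2.58 CPM of Atf3, all above the control mice, at 1.43 to 1.99 CPM. This was not particular to 4MU, since Atf3 was 2.27 to 3.91 CPM in siHAS2-LNP and 1.98 to 3.02 CPM in siLuc-LNP mice. The 4.61 CPM of Asns in 4MU mouse 1 stood against 0.78 and 0.35 CPM in the other 4MU mice, and without that mouse the Asns difference was -1.25.

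CCl4+siHAS2-LNP against CCl4 mice asks the same of the siRNA against the hyaluronan synthase. Psat1 was again lower and was the only 1 of the 9 members called, where 14.4% of tested genes were called (7.33% lower). The median log2 fold change of the members was 0.07, beside 0.02 over all tested genes. Psat1 had 20.35, 12.35, 8.35 and 4.41 CPM in the CCl4+siHAS2-LNP mice, all below the 24.9 and 39.2 CPM of the CCl4 mice. It fell by 1.46 (SE 0.41, adjusted p = 0.0182), to 0.362 of its level. The difference was -1.23 and still called (adjusted p = 0.0444) without the shallow mouse 4, but it was not called without CCl4+siHAS2-LNP mouse 3 (-1.34, adjusted p = 0.0563) or without CCl4 mouse 2 (-1.13, adjusted p = 0.272).

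The other enzymes were not called. Phgdh had 10.1, 6.88, 3.73 and 3.60 CPM (log2 difference -0.69, interval -1.49 to 0.11, adjusted p = 0.265), and Asns 19.3, 6.15, 8.63 and 7.61 CPM (0.26, interval -1.11 to 1.62, adjusted p = 0.844, and -0.33 without CCl4 mouse 2). Atf3 had 4.89, 4.83, 3.61 and 2.54 CPM, all below the CCl4 mice at 6.67 and 7.31 CPM, but its log2 difference of -0.79 (SE 0.38, adjusted p = 0.171) did not pass. Chac1 was between 1.42 and 3.05 CPM (0.42, adjusted p = 0.728, and -0.02 without CCl4 mouse 2), Ppp1r15a between 4.27 and 8.88 CPM (0.24, adjusted p = 0.63, and -0.02 without CCl4 mouse 1) and Ddit3 between 3.96 and 8.06 CPM (0.55, adjusted p = 0.353). Trib3 had 29.8 CPM in mouse 1 and 5.74 to 8.15 CPM in the other 3, so that its log2 difference of 0.02 (interval -1.304 to 1.34, adjusted p = 0.991) was -0.82 without mouse 1 and -0.05 with DESeq2. Atf4 ranged from 69.7 to 100.2 CPM, with a log2 difference of 0.07 (interval -0.34 to 0.49, adjusted p = 0.855), or -0.02 with limma-voom.

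The siRNA against luciferase serves as the control for the nanoparticles. In CCl4+siLuc-LNP against CCl4 mice 0 of the 9 members were called by edgeR, 0 at an unadjusted p under 0.05 and 0 by DESeq2, where 0.248% of tested genes were called. Psat1 had 24.1, 8.02, 26.2 and 28.6 CPM, so that mouse 2 lay well below and mouse 1 just below the CCl4 mice (log2 difference -0.56, interval -1.36 to 0.24, adjusted p = 0.567). Phgdh had 18.9, 6.56, 20.95 and 9.77 CPM (0.49, interval -0.33 to 1.30, adjusted p = 0.641). Atf3 had 9.60, 4.48, 3.18 and 10.9 CPM, which spans the CCl4 mice on both sides.

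Against that control, CCl4+siHAS2-LNP mice had no member called by edgeR (0 of 9, with 3 at an unadjusted p under 0.05, where 1.09% of tested genes were called). These 3 had log2 differences of -1.18 for Phgdh (SE 0.34, adjusted p = 0.0862), -0.90 for Psat1 (SE 0.35, adjusted p = 0.182) and -0.80 for Atf3 (SE 0.32, adjusted p = 0.203), and Chac1 differed by -0.82 with a wider error (SE 0.54, adjusted p = 0.477). DESeq2 called 1 member, Phgdh. The 95% interval of the Psat1 difference, before adjustment, ran from -1.58 to -0.22.

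CCl4+4MU and CCl4+siHAS2-LNP mice could be compared directly and share no mice. Here edgeR called 0 of 9 members (3 at an unadjusted p under 0.05), where 1.22% of tested genes were called. All 9 differences were positive, with a median of 0.56 beside 0.00 over all tested genes. The 9 signs come from the same mice and are not independent. Chac1 was 1.98 higher on the log2 scale with 4MU (SE 0.54, adjusted p = 0.0639), and DESeq2 called it as its 1 member. Ppp1r15a was 0.66 higher (SE 0.24, adjusted p = 0.145), with all CCl4+4MU mice above all CCl4+siHAS2-LNP mice. Psat1, lower in both than in CCl4 mice, differed by 0.05 (interval -0.63 to 0.73).

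The summed dividing cell markers were 200.7 and 434.5 CPM in the CCl4 mice, 29.5 to 141.0 CPM in CCl4+4MU, 108.6 to 117.5 CPM in CCl4+siHAS2-LNP and 110.2 to 377.1 CPM in CCl4+siLuc-LNP mice. The stellate and fibroblast markers were 402.8 and 656.3 CPM in CCl4, 141.5 to 413.8 CPM in CCl4+4MU, 168.0 to 262.9 CPM in CCl4+siHAS2-LNP and 244.6 to 756.4 CPM in CCl4+siLuc-LNP mice, with 0 of 6 called in CCl4+4MU and 3 of 6 lower in CCl4+siHAS2-LNP against CCl4 mice. The hepatocyte markers were lowest in CCl4 mouse 2, at 72300 CPM, the mouse with the highest Psat1. They were 147000 to 175600 CPM in CCl4+4MU mice, where 3 of the 5 were higher than in CCl4 mice. In that comparison 18.3% of all tested genes were called (8.28% higher). The Kupffer cell markers were 210.7 and 253.4 CPM in CCl4 and 176.5 to 347.5 CPM in CCl4+4MU mice. They were 89.2 to 123.5 CPM in CCl4+siHAS2-LNP and 112.2 to 194.2 CPM in CCl4+siLuc-LNP mice. In CCl4+siHAS2-LNP mice 3 of 4 of them and 2 of 4 endothelial markers were lower than in CCl4 mice. In that comparison 14.4% of all tested genes were called (7.33% lower). Between CCl4+siHAS2-LNP and CCl4+siLuc-LNP mice 0 of 4 Kupffer cell, 0 of 4 endothelial and 0 of 6 stellate and fibroblast markers were called. There 1.09% of all tested genes were called. The part of these markers in the lower Psat1 of both treated groups was not tested.

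Without fibrosis the nanoparticles changed none of the members past the threshold. In siLuc-LNP against control mice edgeR called 0 of 9 (0 at an unadjusted p under 0.05, 0 by DESeq2), where 0.213% of tested genes were called. In siHAS2-LNP against siLuc-LNP mice it called 0 of 9 (1 at an unadjusted p under 0.05, 0 by DESeq2), where 0.0425% were called. Trib3 had 4.48, 6.04 and 6.40 CPM in siHAS2-LNP against 20.25, 9.68 and 14.6 CPM in siLuc-LNP mice, which did not overlap, with a log2 difference of -1.40 (SE 0.66, adjusted p = 0.54). The interactions of siLuc-LNP with CCl4 and of siHAS2-LNP against siLuc-LNP with CCl4 called 0 of 9 members each (0 and 1 at an unadjusted p under 0.05, 0 by DESeq2 in both), where 0.00709% and 0.0354% of tested genes were called.

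The members sit in a wider pathway, for which 48 other genes in 6 roles were listed and 45 could be tested. In CCl4 against control mice 17 of the 45 were called, 12 higher and 5 lower, with a median log2 fold change of 0.11, where 34.0% of all tested genes were called. In the list of serine, glycine and one-carbon synthesis 5 of 6 genes were called, 4 higher and 1 lower, with a median of 1.70. The lists were chosen with earlier results of these data known, so this is not independent support for Psat1 and Phgdh. Mthfd2, the mitochondrial folate enzyme that uses serine-derived carbon, had 1.02 to 1.89 CPM in control and 6.86 and 16.1 CPM in CCl4 mice (log2 fold change 3.14, SE 0.41, adjusted p = 2.53e-06). Aldh1l2, another mitochondrial folate enzyme, was called too, but every control mouse had 3 counts or fewer, at 0 to 0.153 CPM against 0.34 and 0.79 CPM in CCl4 mice, so its fold change is not given, and with a limit of 3 counts in its place the median of the list was 1.61. Shmt1, the cytosolic enzyme that converts serine to glycine and which is abundant in liver, fell by 0.73 (SE 0.18, adjusted p = 0.00335). Without CCl4 mouse 2 neither Aldh1l2 (adjusted p = 0.185) nor Shmt1 (-0.47, adjusted p = 0.155) was called.

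Of the other 6 genes of amino acid synthesis, 2 rose and 1 fell in CCl4 mice. Pycr1 (2.61, SE 0.45, adjusted p = 8.60e-05) and Aldh18a1 (2.56, SE 0.43, adjusted p = 6.85e-05), both of proline synthesis, were higher, and Got1, an aspartate aminotransferase, was lower (-0.87, SE 0.31, adjusted p = 0.0328). Of 7 tested amino acid transporters 2 rose and 1 fell, Slc3a2, the shared heavy chain of several exchangers (-0.76, SE 0.24, adjusted p = 0.0197). Of 10 tested effectors and secreted signals 2 rose and 2 fell. Tnfrsf10b, a death receptor that is a known target of CHOP, had 0.31 to 0.94 CPM in control and 5.64 and 9.57 CPM in CCl4 mice (3.33, SE 0.36, adjusted p = 1.60e-07), while Vldlr, a lipoprotein receptor (-3.005, SE 0.47, adjusted p = 3.08e-05), and Vegfa, an angiogenic factor (-1.37, SE 0.20, adjusted p = 1.47e-05), were lower. The call of Got1 was lost without CCl4 mouse 2 (-0.60, adjusted p = 0.335), control mouse 3 (adjusted p = 0.0862) or control mouse 4 (adjusted p = 0.0917), and that of Slc3a2 without CCl4 mouse 1 (-0.42, adjusted p = 0.294). Of the 9 eIF2 kinases and controls 2 were higher, both lost without CCl4 mouse 2. Of the 7 other transcription factors edgeR called 0, with 0 at an unadjusted p under 0.05 and 0 by DESeq2.

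Averaged over the 4 arms, 31 of the 45 genes were called, 17 higher and 14 lower, where 51.9% of tested genes were called. Tnfrsf10b (2.88, SE 0.19), Aldh1l2, Pycr1 (2.298, SE 0.22), Mthfd2 (1.97, SE 0.20) and Aldh18a1 (1.85, SE 0.21) led the higher genes, and Vldlr (-2.497, SE 0.20), Slc3a2 (-0.71, SE 0.11), Vegfa (-0.65, SE 0.09), Got1 (-0.57, SE 0.14) and Slc6a9, a glycine transporter (-0.57, SE 0.23), the lower ones. The call of Slc6a9 (adjusted p = 0.0448) was lost without any of 16 single mice, at adjusted p up to 0.139. Of the 9 eIF2 kinases and controls, 2 were higher and 5 lower, by less than 0.4 each in either direction.

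In CCl4+4MU against CCl4 mice 11 of the 45 genes were called, 4 higher and 7 lower, where 18.3% of all tested genes were called. In CCl4+siHAS2-LNP against CCl4 mice 6 were called, 2 higher and 4 lower, where 14.4% of all tested genes were. Mthfd2 had 1.60 to 4.70 CPM in CCl4+4MU (log2 fold change -1.95, SE 0.39, adjusted p = 0.002) and 3.56 to 5.44 CPM in CCl4+siHAS2-LNP mice (-1.41, SE 0.39, adjusted p = 0.0187), below both CCl4 mice. Mthfd1l, the next enzyme of the same folate path, fell by 1.05 and 1.17 in the same order, and Psph, the last enzyme of serine synthesis, by 0.94 and 0.68 (adjusted p = 0.00559 and 0.0413). Cth, the last enzyme of cysteine synthesis, rose by 1.22 and 1.12 (adjusted p = 0.0181 and 0.0326), and Vegfa by 0.92 and 1.03 (adjusted p = 0.00348 and 0.00251). Eif2ak2, the kinase that senses double-stranded RNA (-0.94, adjusted p = 0.0199), and Tnfrsf10b (-1.32, adjusted p = 0.00963) were also lower in CCl4+4MU than in CCl4 mice. Cebpb, a C/EBP partner of ATF4 (1.32, adjusted p = 0.0334), and Shmt1 (0.57, adjusted p = 0.0299) were higher there. In CCl4+siHAS2-LNP against CCl4 mice Cebpd, another C/EBP factor, was lower (-1.03, adjusted p = 0.0488). This call was lost without any 1 of the 6 mice compared, with differences from -1.197 to -0.8838. With limma-voom the calls of Psph (adjusted p = 0.0722) and Cebpd (0.125) in CCl4+siHAS2-LNP and of Cebpb (0.0912) in CCl4+4MU mice were lost, and that of Shmt1 in CCl4+4MU mice was lost with no low-count filter (0.113) and with the compared groups alone (0.0746). Both comparisons use the same 2 CCl4 mice, and each of the calls named for them was lost without CCl4 mouse 2, with adjusted p from 0.0871 to 0.491 for CCl4+4MU and from 0.0779 to 0.511 for CCl4+siHAS2-LNP mice. In CCl4+siLuc-LNP against CCl4 mice edgeR called 0 of the 45 genes (7 at an unadjusted p under 0.05, 0 by DESeq2), and in 4MU against control mice 0 (4 at an unadjusted p under 0.05, 0 by DESeq2). Set against the nanoparticle control, CCl4+siHAS2-LNP mice also had 0 of the 45 called by edgeR (6 at an unadjusted p under 0.05, 1 by DESeq2). There 1.09% of all tested genes were called, so these genes are not shown to differ between the 2 siRNAs.

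**Figure D4:**
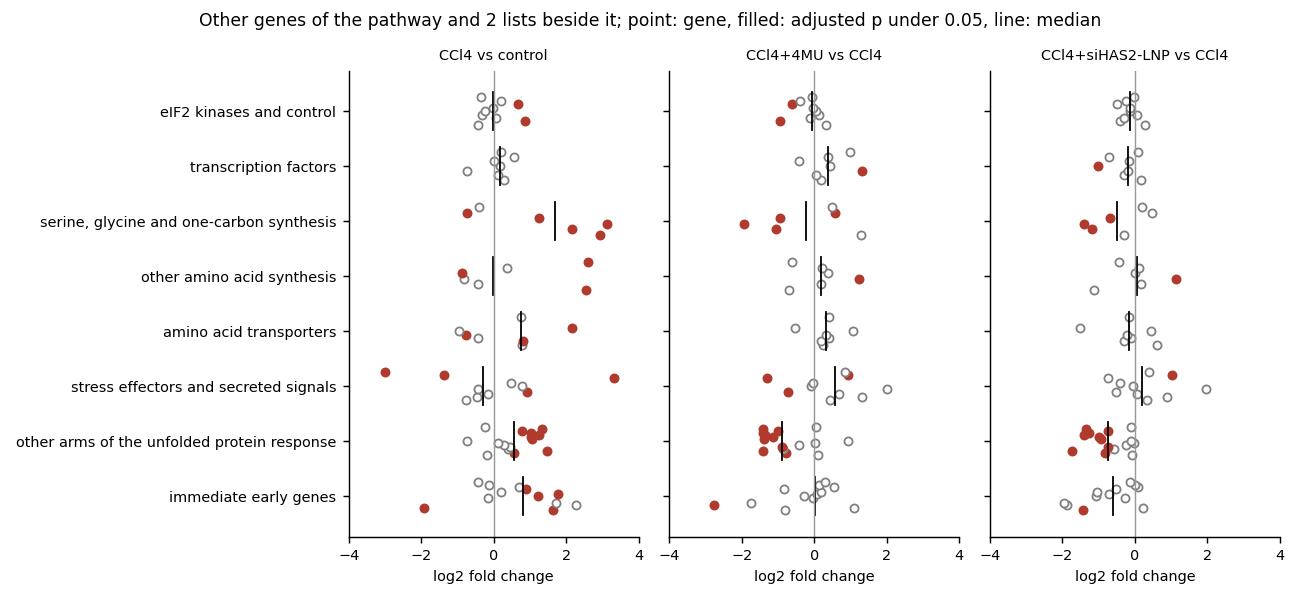
Log2 fold change of the other genes of the pathway by role, and of 2 lists beside it (other arms of the unfolded protein response and immediate early genes), in 3 comparisons. Each point is a gene, filled where the adjusted p is under 0.05, and the line marks the median of the list. The genes of the unfolded protein response lie to the right of 0 in CCl4 against control mice and to the left of 0 in CCl4+4MU and in CCl4+siHAS2-LNP against CCl4 mice.

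The response shares its sensor PERK with the unfolded protein response, whose other arms act through ATF6 and XBP1 on chaperones of the endoplasmic reticulum. Of 15 such genes 8 rose and none fell in CCl4 against control mice (median 0.57), where 34.0% of all tested genes were called and 18.0% were higher. The same effect of CCl4 within the other arms gave 1 lower in the 4MU arm (median -0.22), 1 higher in the siLuc-LNP arm (median 0.34) and 0 called in the siHAS2-LNP arm (0 at an unadjusted p under 0.05, 0 by DESeq2, median 0.000465). In CCl4+4MU against CCl4 mice 9 fell and none rose (median -0.89), where 18.3% of all tested genes were called. In CCl4+siHAS2-LNP against CCl4 mice 9 fell and none rose (median -0.76), where 14.4% were called. In CCl4+siLuc-LNP against CCl4 mice edgeR called 0 (7 at an unadjusted p under 0.05, 1 by DESeq2, median -0.48). Between CCl4+siHAS2-LNP and CCl4+siLuc-LNP mice edgeR also called 0 of the 15 (3 at an unadjusted p under 0.05, 0 by DESeq2, median -0.32). There 1.09% of all tested genes were called, so the fall is not shown to be particular to siHAS2. Without CCl4 mouse 2 the counts were 3 in CCl4 against control and 1 in each of CCl4+4MU and CCl4+siHAS2-LNP against CCl4 mice. As examples chosen after their values were seen, Hspa5, the chaperone BiP, had 650.1 to 763.9 CPM in control, 1506 and 1520 CPM in CCl4, 605.9 to 806.8 CPM in CCl4+4MU and 607.1 to 826.2 CPM in CCl4+siHAS2-LNP mice, and Creld2 had 26.0 to 38.9, 70.8 and 107.6, 25.9 to 41.8 and 23.5 to 28.5 CPM in the same order. Several of these chaperones are also named in the study's own analysis of these mice, so the list is not independent evidence of its direction.

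Atf3 and Ppp1r15a are also induced early by many stimuli outside the stress response. Of 12 tested immediate early genes 4 rose and 1 fell in CCl4 against control mice (median 0.80), where 34.0% of all tested genes were called (18.0% higher and 16.1% lower). In CCl4+4MU against CCl4 mice 1 fell, where 18.3% of all tested genes were called. In CCl4+siHAS2-LNP against CCl4 mice 1 fell, where 14.4% were called. Without CCl4 mouse 2 the counts were 2, 0 and 0. Jun, an early transcription factor that pairs with ATF3, rose by 1.78 in CCl4 against control mice (SE 0.30, adjusted p = 7.50e-05) and is named here because it was also the gene most like Atf3 across mice, as given below.

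The members varied to very different degrees among mice of a group. The SD of log2 CPM within groups was 0.25 for Atf4, below the median of 0.30 over all tested genes, and 0.36 for Ppp1r15a, 0.45 for Ddit3, 0.50 for Atf3, 0.60 for Phgdh and 0.64 for Psat1. It was 0.85 for Trib3 and for Chac1 and 0.96 for Asns. Single mice carried several high values at once. CCl4+siLuc-LNP mouse 3 had the highest Trib3 (31.4 CPM), Chac1 (9.19 CPM), Asns (20.7 CPM), Ddit3 (8.77 CPM) and Ppp1r15a (9.12 CPM) of its group and the lowest Atf3 (3.18 CPM). CCl4+siHAS2-LNP mouse 1 likewise had the highest Trib3 (29.8 CPM), Chac1 (3.05 CPM), Asns (19.3 CPM), Ddit3 (8.06 CPM), Ppp1r15a (8.88 CPM), Psat1 and Phgdh of its group. Both also had the highest hepatocyte markers of their groups, at 147900 and 163300 CPM, and the part of these in the high values was not tested. CCl4+siLuc-LNP mouse 3 stood apart over all genes too. It had the lowest TMM factor of all mice (0.8158), and its counts differed from each mouse of its group by more than those of any other pair within a group. The part of this in its high values was not tested.

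Across mice, 6 pairs of members were compared by correlation of log2 CPM, each in the 14 CCl4-treated and in the 13 other mice, 12 relations in all with permutation tests. Psat1 and Phgdh were correlated in the CCl4-treated mice (Pearson's r = 0.75, permutation p = 0.00204, adjusted p = 0.0245, and Spearman's rho = 0.76, permutation p = 0.00244, adjusted p = 0.0293, n = 14), and r was 0.81 without the 2 mice farthest from the median of Psat1. Trib3 and Chac1 gave r = 0.72 (permutation p = 0.00429, adjusted p = 0.0257) but rho = 0.62 (permutation p = 0.0202, adjusted p = 0.12) in the same mice, and r = 0.75 without the 2 farthest mice. Of the other 10 relations none passed after adjustment, among them Asns with Psat1 (r = 0.21, adjusted p = 0.553) and Atf4 with Asns (r = 0.46, adjusted p = 0.245) in the CCl4-treated mice. These relations pool 4 treatments, whose means differ, and a group holds at most 4 mice, too few for a correlation within it.

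For each member the protein-coding genes most like it were ranked by the smaller of its Pearson correlations over the 14 CCl4-treated and over the 13 other mice, among 12717 genes, as a description with no test. Trib3 was closest to Azin2, an antizyme inhibitor (r = 0.88 and 0.86), Ddit3 to Trappc5 (0.82 and 0.79), Ppp1r15a to Abhd4 (0.80 and 0.77) and Chac1 to Taf8 (0.85 and 0.77). Psat1 was closest to Lsm2 (0.74 and 0.75), Atf3 to Jun (0.78 and 0.73), Atf4 to Mcfd2 (0.68 and 0.67) and Asns to Dclk3 (0.67 and 0.78). Phgdh was closest to Prkcsh (0.66 and 0.68). In the 13 mice without CCl4 Psat1 held 8 to 22 and Phgdh 3 to 11 counts, so their second correlations are uncertain. No member was among the 3 genes closest to another member.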

How the data were processed

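Liver polyA RNA of 27 mice was sequenced in paired-end mode from a directional kit. Per the methods of the study, the authors trimmed reads with Trimmomatic 0.39, aligned them to GRCm39 (Ensembl) with HISAT2 and counted them with featureCounts without reads mapping to several places. The authors worked further in R 3.4.2. The strand setting of the counting and the versions of HISAT2 and featureCounts are not given in the sources used here. The deposited values are raw counts for 55414 genes, neither normalised nor filtered. Symbols, positions and transcript lengths came from GENCODE vM39 (GRCm39), which held 54749 of these genes. The filter kept 14114 genes, those averaging 10 counts or more. Analysis used R 4.3.3, edgeR 4.0.16 (TMM, quasi-likelihood test, all 8 groups in 1 fit, no covariates, Benjamini-Hochberg over all tested genes, threshold 0.05), DESeq2 1.42.0, limma 3.58.1, and Python 3.11.15 with pandas 2.3.3, numpy 2.4.6, scipy 1.17.1 and matplotlib 3.10.9. Scripts were tested on simulated data with 200 changed genes.

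CPM are counts per 1000000 of the TMM-scaled total, and intervals are 95% intervals of the fitted log2 difference. Totals of 7044386 to 29425937 counts set the precision, and the limit of 3 counts covers counting error only. In each of 34 pairs of mice of the same group, counts differed by more than sampling noise. In the main fit the mice were not paired by replicate number.

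All 9 members were named in the main comparisons and elsewhere where called. Of the wider list, up to 5 genes called in each direction with the largest change were named in CCl4 against control, the average over the 4 arms, CCl4+4MU and CCl4+siHAS2-LNP against CCl4, and 4MU against control. Members, lists and comparisons were chosen with earlier results of these data known. Other settings were DESeq2, limma-voom with quality weights, edgeR with size factors from DESeq2, no filter on low counts or that of filterByExpr, replicate numbers as a block, fits of the compared groups alone, and fits without each mouse in turn. Correlations used 100000 permutations.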

Additional observations from a re-analysis of the deposited data

Results flagged for a closer look

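In the groups of 4 mice, 36 combinations of gene and group were examined for a mouse set apart from the other 3 by a large gap, measured as the gap to the nearest mouse over the whole range, with a limit of 0.83. Chance sets apart about 1 in 20 groups, and 4 were found. Atf4 was low in CCl4+siLuc-LNP mouse 4, at 70.7 CPM against 93.5 to 97.7 CPM in the other 3 (ratio 0.844). Trib3 was high in CCl4+siLuc-LNP mouse 3, at 31.4 CPM (ratio 0.908), and in CCl4+siHAS2-LNP mouse 1, at 29.8 CPM (ratio 0.90). Ppp1r15a was high in CCl4+4MU mouse 4, at 12.35 CPM (ratio 0.865), the mouse that also held the highest Asns (35.7 CPM) and Ddit3 (13.3 CPM) of all 27 and a bile duct marker sum of 121.6 CPM against 5.81 to 10.98 CPM in the other CCl4+4MU mice.

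The effect of 4MU on Chac1 with CCl4 minus that without it, an interaction of 3.11 on the log2 scale, just passed edgeR's test (adjusted p = 0.0471). It did not pass with limma-voom (adjusted p = 0.092), with the replicate block (adjusted p = 0.052) or without any 1 of 11 of the 13 mice involved (adjusted p from 0.0533 to 0.251). Chac1 was higher with 4MU by 2.401 in the fibrotic mice and lower by a log2 difference of -0.70, which was not called, in the others.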

How the results depend on the processing

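The rises of Psat1, Phgdh and Asns with CCl4 in the 4MU, siLuc-LNP and siHAS2-LNP arms and on average kept their direction and call under all settings tried, and so did those of Psat1 and Phgdh in CCl4 against control mice. The counts of called members that moved by more than 1.5 times are given first. In CCl4+4MU against CCl4 it went from 3 to 1 with limma-voom. In CCl4+siHAS2-LNP against CCl4+siLuc-LNP it went from 0 to 1 with DESeq2 and to 2 with no low-count filter. In CCl4+4MU against CCl4+siHAS2-LNP it went from 0 to 1 with DESeq2, 2 with limma-voom and 1 with no low-count filter. In siHAS2-LNP against siLuc-LNP, and in the interaction of siHAS2-LNP against siLuc-LNP with CCl4, it went from 0 to 1 with no low-count filter. In the interaction of 4MU with CCl4 it went from 1 to 0 with limma-voom, 3 with no low-count filter and 0 with the replicate block (Chac1 3.34, adjusted p = 0.052). Smaller moves were also seen. The count was 4 in CCl4+4MU against CCl4 with DESeq2 and with no low-count filter (Ddit3 gained, adjusted p = 0.0335 and 0.00921). In CCl4 against control it was 4 with limma-voom (Ppp1r15a lost, adjusted p = 0.0923), in CCl4+siLuc-LNP against siLuc-LNP 3 with the compared groups alone (Atf3 lost, adjusted p = 0.0574), and in CCl4+siHAS2-LNP against siHAS2-LNP 4 with no low-count filter. For CCl4+4MU against 4MU it went from 5 to 7 with limma-voom and to 6 with no low-count filter and with the compared groups alone. On average over the arms it went from 6 to 7 with no low-count filter and to 5 with the replicate block. The cause of these changes was not tested.

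With a mouse left out, the count ranged from 3 to 5 in CCl4 against control, 3 to 6 in CCl4+4MU against 4MU, 0 to 3 in CCl4+4MU against CCl4, and 0 to 1 in CCl4+siHAS2-LNP against CCl4, in CCl4+siHAS2-LNP against CCl4+siLuc-LNP, in CCl4+4MU against CCl4+siHAS2-LNP and in the interaction of 4MU with CCl4.

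Some differences near 0 changed sign. Trib3 in CCl4 against control was 0.006217 with DESeq2, 0.04425 with limma-voom, 0.006419 with DESeq2 size factors, 0.004196 with filterByExpr, 0.0003695 with the compared groups alone, and -0.4146 to 0.343 with a mouse left out. Trib3 in CCl4+siHAS2-LNP against CCl4 was -0.04618 with DESeq2, -0.3555 with limma-voom, -0.01554 with DESeq2 size factors, -0.02725 with filterByExpr, -0.005077 with the replicate block, and -0.8248 to 0.4277 with a mouse left out. In the same comparison Atf4 was -0.01523 with limma-voom and -0.01401 to 0.1567 with a mouse left out, where Asns ran from -0.3252 to 1.119, Chac1 from -0.01691 to 0.942 and Ppp1r15a from -0.01685 to 0.517. In CCl4+4MU against CCl4, Atf3 ran from -0.4993 to 0.01498 and Asns from -0.008184 to 1.678. The average CCl4 effect on Ddit3 ran from -0.2104 to 0.09181. In 4MU against control, Asns was -0.5162 with limma-voom and -1.247 to 0.9151 with a mouse left out, where Psat1 ran from -0.839 to 0.07357, Phgdh from -0.3485 to 0.1935 and Ppp1r15a from -0.2695 to 0.1049. The correlation of Asns and Psat1 over the 13 mice without CCl4 was -0.1047 without the 2 farthest mice.

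No pairing by replicate number was seen in 34 correlations of same-numbered mice, which ran from -0.297 to 0.18. Differently numbered mice were not compared in this way, so pairing is not excluded. Of the calls of members, the block ended that of Ppp1r15a on average (-0.28, adjusted p = 0.0786) and that of the Chac1 interaction. Of the other genes named, the block ended the calls of Got1 in CCl4 against control (adjusted p = 0.0906), of Cebpb in CCl4+4MU (0.0672) and of Cth in CCl4+siHAS2-LNP against CCl4 mice (0.0599). The call of Got1 was also lost with limma-voom (0.106) and with the compared groups alone (0.0707), and that of Cth in CCl4+4MU mice with the compared groups alone (0.0561). With no low-count filter Trib3 was called on average (0.55, adjusted p = 0.00195). Depth limited Psat1 and Phgdh without CCl4, where a mouse held 8 to 22 and 3 to 11 counts.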
